A study of Mus musculus with 15 samples.

Results

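Livers of mice that lacked Aldh2 were compared with wild-type livers after 8 weeks of an ethanol diet and carbon tetrachloride (CCl4). Aldh2 encodes aldehyde dehydrogenase 2, which works in mitochondria and oxidises acetaldehyde, the first product of ethanol breakdown, to acetate. CCl4 is a solvent that hepatocytes turn into a toxic radical, and repeated doses scar the liver. Acetaldehyde and lipid-derived aldehydes react with proteins and DNA, and a hepatocyte meets such damage with several known programmes: chaperones in the endoplasmic reticulum and cytosol, antioxidant enzymes under NRF2, metal-binding metallothioneins, and brakes on growth signalling through mTOR.

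The comparison used 9 of the 15 libraries of the study: 4 from Aldh2-/- mice (replicates 86, 89, 90 and 96) and 5 from wild-type (WT) mice (replicates 5, 6, 7, 11 and 12), all fed ethanol. Each library was bulk RNA-seq of liver. The labels number the replicates without saying that each is a separate mouse, so the p-values measure the spread between these libraries. All mice were male C57BL/6, given as 8 to 10 weeks old, and the WT mice were littermates. The Aldh2-/- stock came from Shanghai Model Organisms, and no Cre or cell type is named for the deletion. Both groups had intraperitoneal CCl4 in olive oil, given 2 times per week over 8 weeks, and were killed 24 h after the last dose. No ethanol-fed mice without CCl4 were analysed here. The values were FPKM, fragments scaled to the length of the gene and the depth of the library, for 23509 genes, of which 11013 averaged at least 0.5 FPKM over the 9 libraries and were tested.

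The sum of FPKM over all genes was 509200.0 to 584500.0 per library, and the steps between low values put the relative depth at 92.2% to 111% of the mean of all 15 libraries. Genes at 1 FPKM or more numbered 9380 to 9869 in Aldh2-/- and 9019 to 9418 in WT libraries. The mitochondrially encoded share of FPKM was 6.68% to 9.72%, apart from WT 5 (13.6%) and Aldh2-/- 90 (18.2%). WT 5 stood apart in a further way: its summed skeletal muscle markers reached 78.8 FPKM against 0.89 to 1.16 FPKM in the other WT libraries. Hepatocyte markers summed to 74520.0 to 90950.0 FPKM against 85920.0 to 106400.0 FPKM in Aldh2-/- and WT libraries, the levels of a liver sample. No 2 libraries held identical values. Nothing in the labels gives a batch or the time of day of killing.

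The targeted gene separated the groups. Aldh2 (GRCm38, chromosome 5, 121566027-121593824, minus strand) was at 10.7, 10.4, 11.5 and 8.82 FPKM in the Aldh2-/- livers and 544, 651, 605, 688 and 685 FPKM in the WT livers. The difference of mean log2(FPKM + 1) was -5.81 (two-sided p by exact permutation = 0.00794, the lowest p open to 126 splits).

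Of the 11013 genes, 2365 were called higher (21.5%) and 1733 lower (15.7%) in Aldh2-/- livers, together 4098 genes or 37.2%. A call means an adjusted p under 0.05 by limma on log2(FPKM + 1) (two-sided, Benjamini-Hochberg over all genes tested). The log2 scale with its added 1 FPKM understates the change of genes with low values. The groups shared no range of values in 2982 genes (27.1%). Many genes named below were chosen among these, so a lack of overlap in them was set by that choice. The median log2 change over all genes was 0.04, with quartiles at -0.21 and 0.31. The split between higher and lower calls moved with the scaling. It was 57.7% higher as deposited, 44.5% after median-ratio rescaling (1958 of 4400 calls), 45.3% after quantile normalization (1913 of 4227) and 49.8% among genes averaging 2 FPKM or more (1436 of 2886). No gene called as deposited was called in the opposite direction under any of these.

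**Figure D1:**
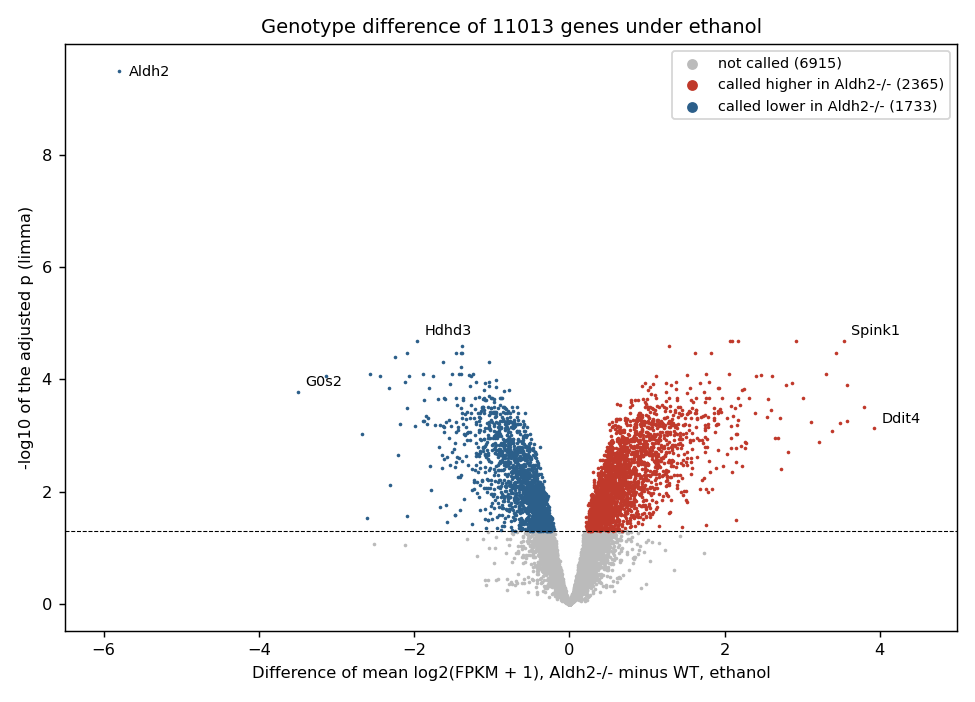
Each point is 1 of the 11013 genes tested, with the difference of mean log2(FPKM + 1) (Aldh2-/- minus WT, both on ethanol and CCl4) on the x axis and -log10 of limma's adjusted p on the y axis. Aldh2 stands far to the left at -5.81, and the called genes lie on both sides, 2365 higher and 1733 lower.

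Groups of genes differed sharply in which way they went, and many stood close to these background rates. Immune receptors, endothelial and matrix-related genes, lysosomal enzymes, immediate early genes and brakes on mTOR held a larger share of calls in the higher direction than all genes. Chaperones of the endoplasmic reticulum and cytosol, conjugating enzymes, antioxidant enzymes, clock output genes and peroxisome genes held a larger share in the lower direction. The lists of genes were chosen with earlier results of these data known, and a share above the background describes the list without testing it.

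**Figure D2:**
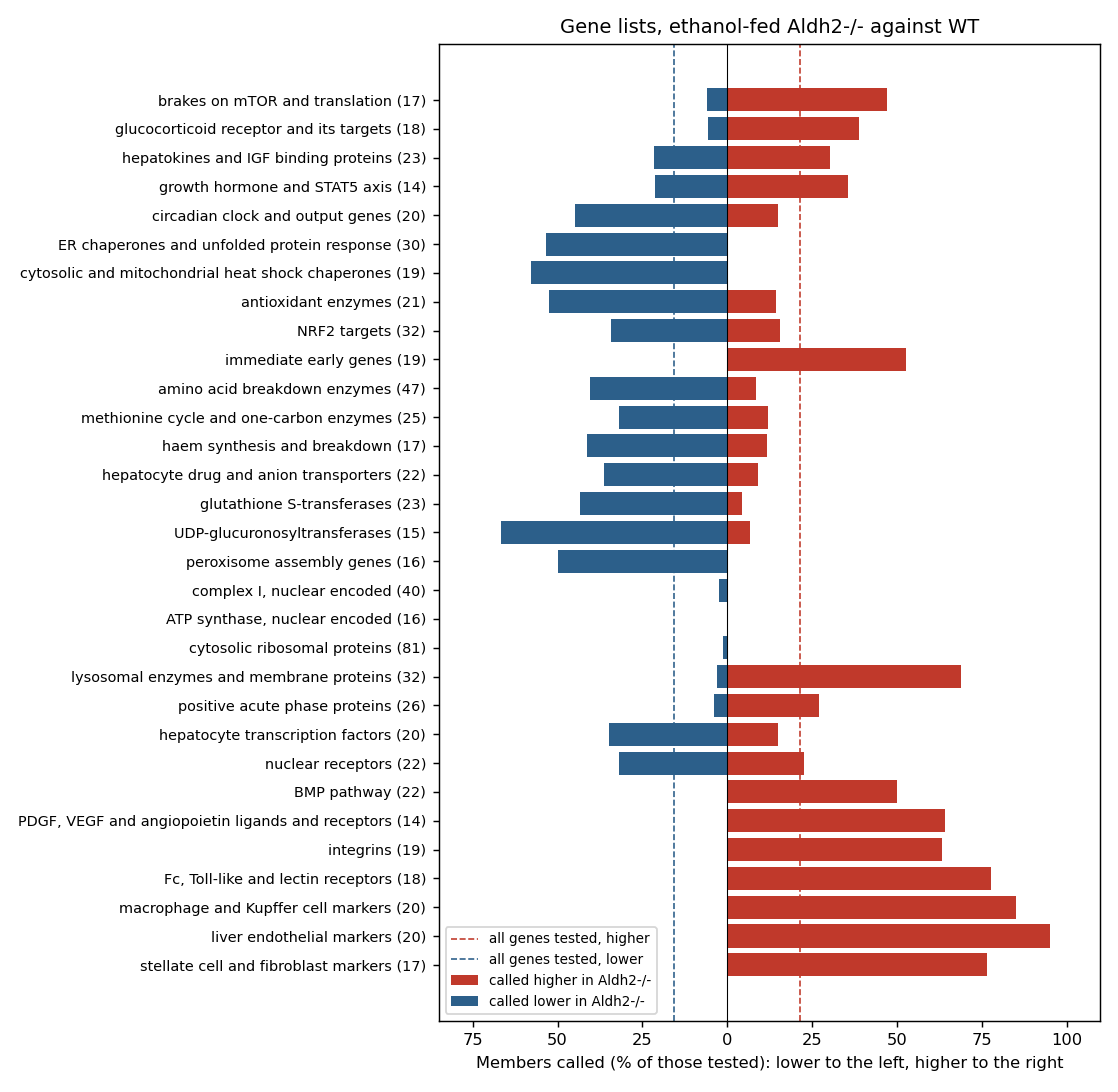
Bars give, for 31 gene lists, the percentage of tested members called higher (to the right) and called lower (to the left) in ethanol-fed Aldh2-/- livers. Dashed lines mark the background over all genes tested, 21.5% higher and 15.7% lower; none of the 30 endoplasmic reticulum members and none of the 19 heat shock members was called higher.

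Some of the largest changes were in genes with roles in signalling and metabolism beyond fibrosis. Rgs2, a regulator that shuts off signalling by G protein-coupled receptors, was at 28.2, 17.3, 21.4 and 18.7 FPKM in the Aldh2-/- livers and 2.05, 1.31, 3.28, 1.46 and 1.84 FPKM in the WT livers. It rose 10.8-fold (log2 change 2.92 ± 0.191, SE, adjusted p = 2.06e-05), and its lowest Aldh2-/- value lay far above its highest WT value. Mt1, a metallothionein that binds zinc and copper, was at 2391, 2706, 3495 and 1737 FPKM in the Aldh2-/- livers and 724, 245, 143, 179.9 and 438 FPKM in the WT livers, a rise of 7.46-fold. Its partner Mt2 rose 5.44-fold (2959 ± 382 against 544 ± 422 FPKM, means ± SD, n = 4 and 5, as below). In both genes WT 5 was the highest WT library and stayed below every Aldh2-/- library. Fam107a, an actin-binding stress protein, rose 17.8-fold (13.9 ± 6.4 against 0.779 ± 0.655 FPKM; 28.0-fold without WT 5). Ppp1r3g, a subunit that directs protein phosphatase 1 to glycogen, rose 27.7-fold, but 11.9-fold without Aldh2-/- 86, whose 61.8 FPKM compared with 6.15 to 13.6 FPKM in the other Aldh2-/- libraries. Mmp7, a matrix metalloproteinase known from injured biliary epithelium, rose 4.76-fold and 9.75-fold without WT 5, whose 51.8 FPKM compared with 3.51 to 13.4 FPKM in the other WT libraries. Summed cholangiocyte markers were also higher in WT 5 than in the other WT libraries, and were 173 to 316 FPKM against 60.9 to 191 FPKM in the Aldh2-/- and WT groups. Their part in the Mmp7 result was not tested.

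The largest falls were mostly in enzymes. Hsd17b6, a dehydrogenase of retinol and steroids, was at 37.8, 44.3, 22.7 and 22.6 FPKM in the Aldh2-/- livers and 80.8, 106, 197, 161 and 208 FPKM in the WT livers, 4.73-fold lower. Sdr9c7, of the same dehydrogenase family, fell 6.33-fold (1.56 ± 0.734 against 9.88 ± 2.85 FPKM). Acy3, an aminoacylase that removes acetyl groups from conjugated amino acids, stood at 14.8 ± 4.12 against 56.4 ± 7.12 FPKM, and Pbld2, a protein related to phenazine biosynthesis enzymes, at 12.1 ± 2.72 against 54.1 ± 7.96 FPKM. Hdhd3, a phosphatase-like protein of the haloacid dehalogenase family, was at 2.53, 2.9, 4.34 and 3.45 FPKM in the Aldh2-/- livers and 16.9, 14.4, 14.2, 17.3 and 14.9 FPKM in the WT livers (log2 change -1.96 ± 0.127, SE, adjusted p = 2.06e-05). None of these 5 genes overlapped between the groups, which the rule that named them required. Akr1c20 fell 4.65-fold and Apol7a 6.56-fold, both members of families of similar copies between which reads may be split.

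Brakes on mTOR, the kinase that drives protein synthesis when nutrients and insulin are plentiful, had more rises than falls. Of 17 tested members 8 rose and 1 fell (2 without Aldh2-/- 96 or without WT 5), with a median log2 change of 0.27. Ddit4, which releases the TSC complex to switch mTOR complex 1 off, was at 315, 216, 257 and 363 FPKM in the Aldh2-/- livers and 53.7, 34.6, 8.11, 4.59 and 21.6 FPKM in the WT livers. The lowest Aldh2-/- library lay far above the highest WT library (log2 change 3.93 ± 0.575, SE, adjusted p = 0.000747). Eif4ebp3, which blocks the cap-binding factor of translation, was at 513, 357, 625 and 688 FPKM in the Aldh2-/- livers and 224, 164, 90.5, 52 and 85.7 FPKM in the WT livers and rose 4.43-fold (log2 change 2.28 ± 0.377, SE, adjusted p = 0.00136). Sesn1, a sestrin that restrains mTOR through the GATOR complexes and a known p53 target, was at 19.3, 13.5, 14.2 and 17.4 FPKM in the Aldh2-/- livers and 4.67, 3.85, 3.27, 3.09 and 4.16 FPKM in the WT livers. In both genes every Aldh2-/- library was above every WT library. Grb10, an adaptor that dampens the insulin receptor, rose 3.65-fold, and Sesn2, the stress-induced sestrin, 2.21-fold with overlapping groups. Deptor, a subunit that inhibits mTOR itself, was the member that fell (6.86 ± 1.02 against 9.79 ± 0.941 FPKM).

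Genes under insulin and FOXO control were called at rates near those of all genes (21.5% higher and 15.7% lower). Of 19 tested 4 rose (21.1%) and 2 fell (10.5%, or 4 genes without Aldh2-/- 96 or without WT 5). Irs2, the insulin receptor substrate that FOXO factors raise in fasting, was at 14.7, 7.14, 7.64 and 13.9 FPKM in the Aldh2-/- livers and 2.92, 3.1, 3.22, 3.73 and 3.5 FPKM in the WT livers. The WT libraries lay close together, and all Aldh2-/- libraries were above them. Foxo3 rose 1.67-fold (9.58 ± 2.3 against 5.75 ± 0.66 FPKM), and Pik3r1, the regulatory subunit of PI3 kinase, fell 1.65-fold (2.1 ± 0.371 against 3.47 ± 0.485 FPKM). Food intake and blood glucose were not analysed here.

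Genes known to respond to glucocorticoids included more rises than falls. Of 18 tested 7 rose and 1 fell, the rises including Ddit4 and Mt2, which other lists hold too, and the median log2 change was 0.48. Sgk1, a kinase of ion transport and cell survival, was at 54.6, 38, 31.9 and 36.3 FPKM in the Aldh2-/- livers and 18.5, 12.2, 7.42, 6.01 and 14.2 FPKM in the WT livers. Cebpd, a transcription factor of the acute response, was at 36.3, 36.6, 38.1 and 28.1 FPKM in the Aldh2-/- livers and 22.6, 11.7, 7.16, 3.41 and 12.8 FPKM in the WT livers. Neither gene overlapped between the groups, and in both the highest WT library was WT 5. Tsc22d3, which encodes the glucocorticoid-induced leucine zipper, rose 1.95-fold, a call lost without Aldh2-/- 86 or with no filter on low values (adjusted p = 0.019 by limma in all 9 libraries). Fkbp5, a co-chaperone widely used as a glucocorticoid marker, rose 1.27-fold with overlapping groups (53.8 ± 4.41 against 42.3 ± 6.5 FPKM, adjusted p = 0.0471 by limma), and its call was lost without any of Aldh2-/- 86, 89 or 90 or WT 5, 6, 7 or 11 and after median-ratio rescaling. The receptor gene Nr3c1 fell 1.35-fold (3.4 ± 0.644 against 4.6 ± 0.378 FPKM). That call was lost without any of Aldh2-/- 86 or 90 or WT 7, 11 or 12, which left no gene of the list called lower, while 2 were called lower without Aldh2-/- 96.

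Among liver hormones 7 of 23 rose (30.4%) and 5 fell (21.7%), against 21.5% and 15.7% of all genes. Gdf15, a stress hormone that suppresses appetite, was at 15.3, 19.2, 34.5 and 12.2 FPKM in the Aldh2-/- livers and 5.06, 3.53, 6.5, 7.71 and 8.1 FPKM in the WT livers. Each Aldh2-/- library exceeded all WT libraries, with Aldh2-/- 90 the highest. Fgl1, a hepatocyte-secreted fibrinogen-like protein, rose 2.33-fold (701 ± 202 against 301 ± 105 FPKM). Falls were found in Angptl8, an insulin-induced inhibitor of lipoprotein lipase (9.32 ± 1.98 against 27.1 ± 4.97 FPKM), Tsku, a secreted leucine-rich protein (8.65 ± 3.78 against 30.3 ± 9.55 FPKM), and Inhbc, an activin subunit (7.84 ± 1.91 against 25.9 ± 5.25 FPKM), none with overlap.

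The growth hormone axis was split. Socs2, a target of STAT5 that shuts off the growth hormone receptor, was at 9.78, 4.89, 8.9 and 5.42 FPKM in the Aldh2-/- livers and 0.651, 0.315, 0.574, 1.6 and 0.64 FPKM in the WT livers, a rise of 9.58-fold without overlap. The receptor gene Ghr fell 2.17-fold (18.8 ± 2.68 against 40.9 ± 9.28 FPKM), and Igfals, the carrier subunit of circulating insulin-like growth factor, fell 2.71-fold (10.0 ± 0.619 against 27.2 ± 9.07 FPKM). Igf1, the main hormone of the axis, rose 1.65-fold with 1 WT library inside the Aldh2-/- range (91.3 ± 14 against 55.5 ± 13.3 FPKM), and Igfbp3, its main binding protein, rose 3.41-fold (26.4 ± 10.6 against 7.75 ± 0.459 FPKM). In all, 5 of 14 members rose (35.7%) and 3 fell (21.4%), against 21.5% and 15.7% of all genes. Cux2, a repressor normally high in female liver, rose 16.7-fold (28.5-fold without WT 5), although it averaged only 3.12 ± 2.23 against 0.187 ± 0.182 FPKM. Lepr, the leptin receptor gene, was at 10.5, 4.89, 5.73 and 7.01 FPKM in the Aldh2-/- livers and 1.18, 0.306, 0.499, 0.21 and 0.298 FPKM in the WT livers, 14.1-fold higher (21.4-fold without WT 5). WT 5 was its highest WT library and stood below all Aldh2-/- libraries.

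The circadian clock list held genes that changed several-fold in both directions. Its core repressors and activators drive output factors of the PAR bZip family (Dbp, Tef, Hlf), and Nfil3 represses the sites those factors activate. Of 20 tested 9 fell and 3 rose, and the median log2 change was -0.66. Dbp was at 3.11, 5.14, 2.45 and 2.36 FPKM in the Aldh2-/- livers and 29.9, 24.6, 28.9, 22.7 and 15.1 FPKM in the WT livers, 7.42-fold lower. Hlf was at 1.84, 2.48, 2.14 and 2.54 FPKM in the Aldh2-/- livers and 6.29, 8.21, 8.36, 8.33 and 8.37 FPKM in the WT livers and Tef at 8.31, 8.39, 6.47 and 7.7 FPKM in the Aldh2-/- livers and 16.8, 18.2, 20.1, 16.4 and 16.1 FPKM in the WT livers. All 3 output factors separated the groups completely. Nfil3 was at 23.5, 22.9, 18 and 34.3 FPKM in the Aldh2-/- livers and 5.66, 5.0, 3.63, 4.86 and 6.15 FPKM in the WT livers, 4.88-fold higher, again with no overlap. Bmal1, the activator of the clock, rose from a low level (1.06 ± 0.323 against 0.352 ± 0.087 FPKM), as did the repressor gene Cry1 (4.97 ± 0.94 against 2.92 ± 0.657 FPKM). Per2 and Per3, repressors of the same loop, fell 2.8-fold and 3.66-fold, whereas Per1 was at 7.19 ± 0.472 against 5.34 ± 1.59 FPKM (adjusted p = 0.0798 by limma). Nr1d2, which encodes the haem receptor REV-ERB beta, fell 2.08-fold. Its paralogue Nr1d1 fell 2.06-fold with overlapping groups, a call lost without Aldh2-/- 86. The list's direction was the same after median-ratio rescaling and quantile normalization (10 lower and 3 higher in each). The expression of clock genes swings over the day, and the hour at which each group was killed is not given, so a difference in hour and an effect of genotype cannot be told apart.

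**Figure D3:**
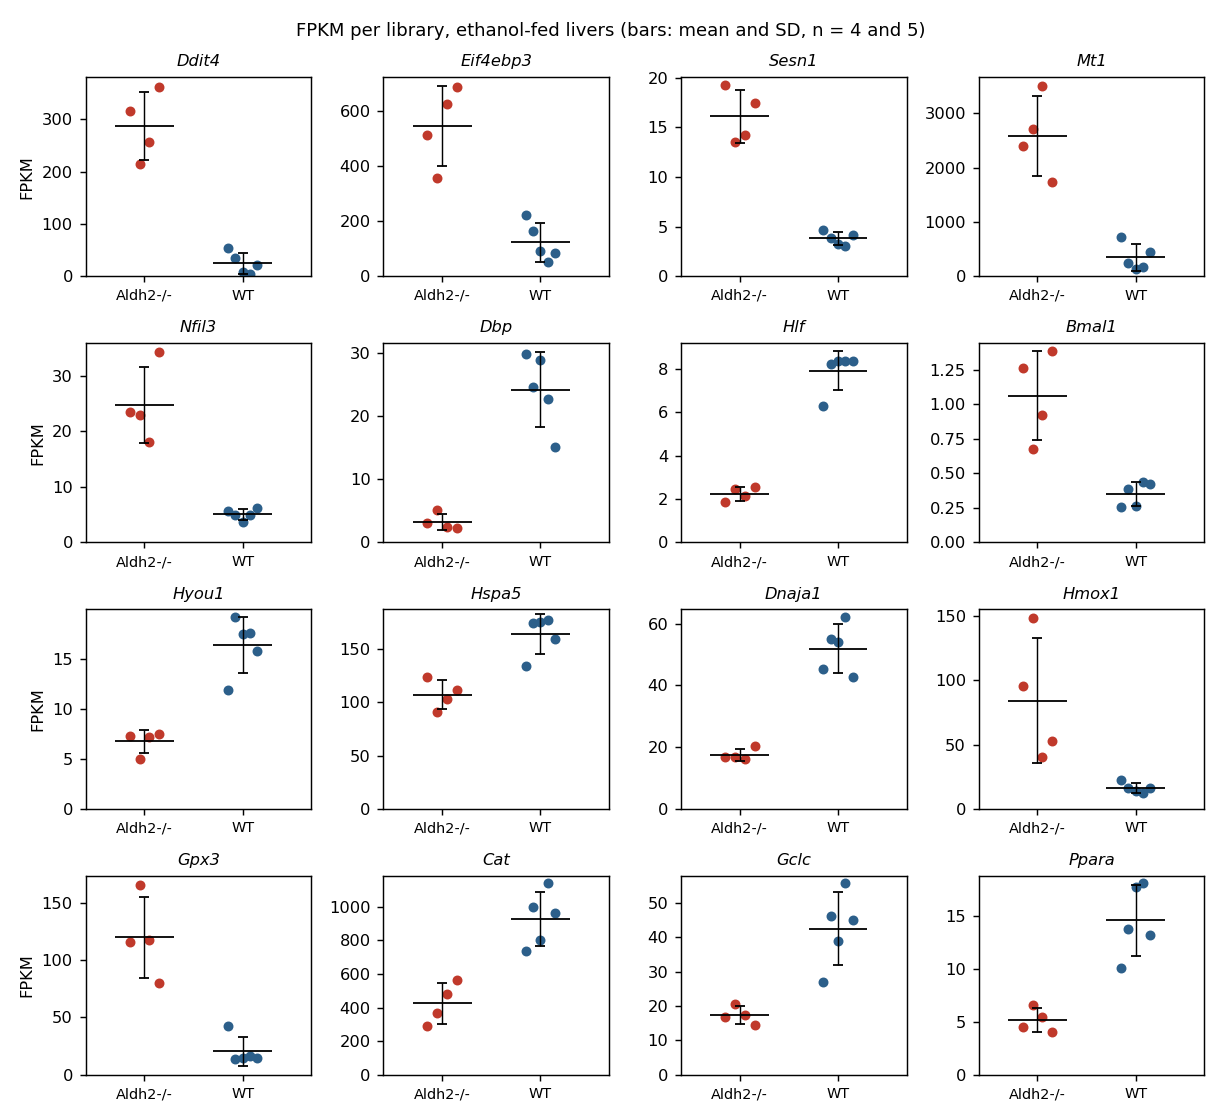
Each panel shows 1 gene, with FPKM (y axis, from 0) for the 4 ethanol-fed Aldh2-/- and 5 ethanol-fed WT libraries (x axis). Points are single libraries, and bars are the group mean and SD. Ddit4, Eif4ebp3, Sesn1, Mt1, Nfil3, Hmox1 and Gpx3 lie higher in every Aldh2-/- library than in any WT library, and Dbp, Hlf, Hyou1, Dnaja1, Cat, Gclc and Ppara lie lower.

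Chaperones and folding enzymes of the endoplasmic reticulum had falls and no rise. Of 30 tested 16 fell and 0 rose, with a median log2 change of -0.40, and the counts were 19 and 0 after median-ratio rescaling and 17 and 0 after quantile normalization. The promoters of this group are known for the endoplasmic reticulum stress element (ERSE), which is CCAAT, then any 9 bases, then CCACG, at which NF-Y and the stress factors ATF6 and XBP1 bind. In the 250 bases before the RefSeq start, on either strand, the exact element was found in 9 of the 23 members with a promoter in the table used (39.1%), and in 33 of all 27025 promoters there (0.122%). The holders were Hspa5, Calr, Canx, Pdia6, Creld2, Derl3 and Syvn1, which fell, and Hsp90b1 and Dnajc3, which were not called. A match describes the sequence and not a bound site. The promoters of 4 holders with calls that held in every fit without a library are shown as examples of the element. Whether the element had a part in the falls was not tested. Each line gives the 250 bases before the start, 5′ to 3′ on the gene's strand (RefSeq, GRCm38.p6), with the element in capitals. In Calr and Creld2 it lies on the opposite strand, so its letters appear reversed and complemented.
Hspa5: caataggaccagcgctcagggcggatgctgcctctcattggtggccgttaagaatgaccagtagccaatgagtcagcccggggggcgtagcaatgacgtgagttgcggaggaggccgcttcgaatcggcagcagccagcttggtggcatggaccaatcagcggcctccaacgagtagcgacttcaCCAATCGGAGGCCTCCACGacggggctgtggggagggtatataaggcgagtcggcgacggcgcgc
Calr: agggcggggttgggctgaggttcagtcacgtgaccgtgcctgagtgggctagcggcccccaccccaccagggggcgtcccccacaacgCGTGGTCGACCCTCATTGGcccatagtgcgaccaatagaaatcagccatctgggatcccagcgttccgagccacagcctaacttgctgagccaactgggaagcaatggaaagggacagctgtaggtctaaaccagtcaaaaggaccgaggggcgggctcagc
Pdia6: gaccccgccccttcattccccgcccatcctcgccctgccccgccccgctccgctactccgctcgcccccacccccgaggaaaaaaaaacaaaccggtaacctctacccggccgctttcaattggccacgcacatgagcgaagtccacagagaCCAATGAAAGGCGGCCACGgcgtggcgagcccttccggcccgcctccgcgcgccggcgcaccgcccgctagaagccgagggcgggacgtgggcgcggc
Creld2: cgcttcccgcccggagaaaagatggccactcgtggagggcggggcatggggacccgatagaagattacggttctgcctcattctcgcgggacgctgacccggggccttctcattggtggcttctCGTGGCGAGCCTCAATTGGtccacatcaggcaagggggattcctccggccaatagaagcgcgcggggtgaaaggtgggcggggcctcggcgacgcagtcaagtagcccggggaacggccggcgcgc
The windows are chr2:34771840-34772089, plus strand for Hspa5, chr8:84846932-84847181, minus strand for Calr, chr12:17266339-17266588, plus strand for Pdia6 and chr15:88819396-88819645, plus strand for Creld2. The element begins 65, 162, 98 and 126 bases before the start in that order, read along the gene's strand.

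Hspa5, which encodes BiP, the main chaperone of the compartment, was at 124, 90.9, 103 and 111 FPKM in the Aldh2-/- livers and 134, 175, 176, 178 and 159 FPKM in the WT livers. Every Aldh2-/- library was below every WT library, and WT 5 was the lowest of its group (log2 change -0.61 ± 0.126, SE, adjusted p = 0.00408). Calr, the lectin chaperone calreticulin, was at 161 ± 23.6 against 294 ± 47.8 FPKM, and Pdia6, a disulfide isomerase, at 42.3 ± 2.31 against 65.3 ± 10.8 FPKM. Creld2, a secreted factor of the unfolded protein response, was at 11.4 ± 2.18 against 21.7 ± 4.13 FPKM. Hyou1, a large chaperone that hypoxia also raises, fell 2.43-fold (7.3, 5.0, 7.19 and 7.44 FPKM in the Aldh2-/- livers and 11.8, 19.2, 17.5, 17.6 and 15.8 FPKM in the WT livers), and Pdia4, another isomerase, fell 2.03-fold. Canx and Syvn1 fell 1.25-fold and 1.36-fold with overlapping groups, and both calls were lost without any of Aldh2-/- 86 or 90 or WT 6, 7, 11 or 12, the Canx call also without Aldh2-/- 96 and after quantile normalization, and the Syvn1 call also without Aldh2-/- 89. Hsp90b1 was at 127 ± 27.1 against 169.7 ± 26.2 FPKM (adjusted p = 0.0594 by limma).

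The PERK arm of that stress response acts through ATF4, and its genes were called at rates near those of all genes. Of 25 tested 6 rose (24.0%) and 5 fell (20.0%), against 21.5% and 15.7% of all genes. Atf4 itself rose 1.54-fold (77.5 ± 16.4 against 50.1 ± 5.32 FPKM), and Asns, which makes asparagine, rose 4.36-fold with overlapping groups. Atf5, the related factor of the mitochondrial stress response, fell 1.63-fold (169.5 ± 38.9 against 277 ± 25.5 FPKM). Ddit3, which encodes the death-linked factor CHOP, was at 3.19 ± 1.23 against 3.01 ± 1.21 FPKM (adjusted p = 0.864 by limma).

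Heat shock chaperones of the cytosol and mitochondria showed a similar count as deposited. Of 19 tested 11 fell and 0 rose, with a median of -0.60, and none rose under either rescaling. Members called higher numbered 1 without WT 5, without Aldh2-/- 89, without WT 5 and Aldh2-/- 90 together, with no filter on low values and in the joint fit of 4 groups, and 2 with library quality weights. Their known regulator HSF1 binds inverted repeats of GAA. The pair GAANNTTC, on either strand, was found in 4 of the 14 members with a promoter in the table (28.6%) and in 1833 of all 27025 (6.78%). Among all genes tested with a promoter the share was 4.95%. It was 5.2% of those called lower, 4.35% of those called higher and 5.09% of those not called. The holders were Dnaja1 and Hspb1, which fell, and Hspa1b and Hspe1, which were not called. The promoters of the holders that fell are shown in the same layout, with each pair in capitals.
Dnaja1: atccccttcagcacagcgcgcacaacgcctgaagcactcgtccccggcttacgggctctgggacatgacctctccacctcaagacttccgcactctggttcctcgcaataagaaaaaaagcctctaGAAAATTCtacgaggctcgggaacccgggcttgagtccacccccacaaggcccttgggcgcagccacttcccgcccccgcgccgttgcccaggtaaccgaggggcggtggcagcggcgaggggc
Hspb1: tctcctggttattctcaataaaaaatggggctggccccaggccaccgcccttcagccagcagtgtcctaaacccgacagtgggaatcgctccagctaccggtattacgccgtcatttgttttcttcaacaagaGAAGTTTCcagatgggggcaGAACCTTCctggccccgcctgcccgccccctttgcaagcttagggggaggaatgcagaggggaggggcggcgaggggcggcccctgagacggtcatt
These windows are chr4:40722218-40722467, plus strand for Dnaja1 and chr5:135887669-135887918, plus strand for Hspb1, on GRCm38.p6. Dnaja1, a co-chaperone of the Hsp70 family, was at 16.7, 16.8, 16 and 20.4 FPKM in the Aldh2-/- livers and 45.4, 55, 53.9, 62.2 and 42.7 FPKM in the WT livers. The Aldh2-/- libraries clustered tightly and far below the WT libraries (log2 change -1.51 ± 0.127, SE, adjusted p = 7.92e-05). Hspb1, the small heat shock protein that steadies actin, was at 15.8, 12.6, 14.3 and 16.6 FPKM in the Aldh2-/- livers and 48.1, 43.5, 37.1, 31.6 and 16.9 FPKM in the WT livers. Its groups did not overlap, but WT 12 came close to the highest Aldh2-/- library. Hsph1, an exchange factor of Hsp70, fell 3.67-fold (1.88 ± 0.705 against 6.88 ± 1.74 FPKM), and Hsp90ab1, the constitutive cytosolic Hsp90, 1.87-fold (242 ± 33.5 against 454 ± 64.8 FPKM). Hspa8, the constitutive Hsp70 chaperone, was at 519 ± 50.0 against 552 ± 84.8 FPKM (adjusted p = 0.672 by limma).

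NRF2, the factor that senses electrophiles such as aldehydes, had targets on both sides. Of 32 tested 5 rose and 11 fell. Hmox1, which breaks down haem, was at 95.4, 148, 40.4 and 52.4 FPKM in the Aldh2-/- livers and 22.1, 16.1, 13.9, 12.3 and 16.4 FPKM in the WT livers. The Aldh2-/- libraries ranged widely, with 89 the highest, and all lay above the WT libraries. Gclc, the rate-limiting enzyme of glutathione synthesis, was at 16.8, 20.7, 17.4 and 14.6 FPKM in the Aldh2-/- livers and 26.9, 46.1, 38.9, 55.9 and 44.9 FPKM in the WT livers, lower in every Aldh2-/- library. Ugdh, which makes the glucuronic acid donor, fell 2.35-fold (23.2 ± 1.76 against 54.5 ± 11.5 FPKM), and Nqo1, a quinone reductase and classical target, was at 4.94 ± 1.74 against 5.27 ± 1.02 FPKM (adjusted p = 0.684 by limma). Hmox1 is also a gene of macrophages, whose summed markers were 881 to 1838 FPKM against 359.8 to 553 FPKM in Aldh2-/- and WT libraries, and their part in the Hmox1 result was not tested.

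Antioxidant enzymes fell in 11 of 21 and rose in 3 (1 without Aldh2-/- 86). Cat, the catalase of peroxisomes, was at 293, 366, 479 and 567 FPKM in the Aldh2-/- livers and 735, 997, 800.2, 1143 and 965 FPKM in the WT livers, 2.18-fold lower with no overlap. Msrb1, a selenoprotein that repairs oxidised methionine, fell 1.89-fold (100.4 ± 12.8 against 189.7 ± 12 FPKM). Gpx3, the secreted glutathione peroxidase, went the other way: it was at 116, 166, 118 and 80.3 FPKM in the Aldh2-/- livers and 42.3, 14.1, 15, 16.1 and 14.4 FPKM in the WT livers, 5.88-fold higher. WT 5 was the highest WT library for Gpx3 by a wide margin and still below every Aldh2-/- library. Sod1, the abundant cytosolic superoxide dismutase, was at 1240.0 ± 85.7 against 1334 ± 211 FPKM (adjusted p = 0.607 by limma). Gpx1, the main cytosolic peroxidase, fell 1.28-fold, a call lost without any of Aldh2-/- 86, 89 or 90 or WT 6, 7, 11 or 12.

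Of 11 tested genes of zinc handling 3 rose and 0 fell, with a median log2 change of 0.02. After median-ratio rescaling 3 rose and 3 fell, after quantile normalization 4 rose and 3 fell, and 1 fell without any of Aldh2-/- 86 or 89 or WT 5. The genes that rose as deposited were Mt1, Mt2 and Slc39a14, a zinc and iron importer of hepatocytes, at 28.2, 23.5, 28.9 and 28.8 FPKM in the Aldh2-/- livers and 12.9, 12.2, 12.1, 15.7 and 14.6 FPKM in the WT livers. The Slc39a14 values lay close together within each group and did not overlap between them (log2 change 0.97 ± 0.109, SE, adjusted p = 0.000251). Immediate early genes, which respond within minutes to growth factors and stress, rose in 10 of 19 and fell in 0. Btg2, a p53-responsive brake on proliferation, was at 51 ± 19.1 against 12.8 ± 2.76 FPKM, Klf6, a zinc finger factor induced by injury, at 11 ± 3.08 against 3.7 ± 0.952 FPKM, and Fosl2, a partner of JUN, at 4.07 ± 1.42 against 1.27 ± 0.216 FPKM. Quantile normalization called 1 member of that list lower and median-ratio rescaling none.

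Regulators of cell death rose in 11 of 23 members and fell in 2 (5 after median-ratio rescaling), on both the killing and the protecting side. Bax, which perforates mitochondria in apoptosis, rose 2.01-fold with overlapping groups (72.2 ± 14.6 against 35.9 ± 9.41 FPKM), and Bbc3, the p53-induced activator PUMA, rose 2.07-fold (7.55 ± 1.65 against 3.65 ± 0.61 FPKM). Bcl2l1, which encodes the survival protein Bcl-xL, was at 32.4, 33.5, 25.8 and 35.9 FPKM in the Aldh2-/- livers and 16.5, 15.6, 12.9, 14.2 and 18.3 FPKM in the WT livers, with no overlap. Casp4, the inflammatory caspase-11 of mice that senses lipopolysaccharide, rose 3.73-fold (1.8 ± 0.481 against 0.483 ± 0.242 FPKM).

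Enzymes that break down amino acids fell more often than they rose. Of 47 tested 19 fell and 4 rose (9 without Aldh2-/- 89). Amt, of the glycine cleavage system, was at 5.36, 3.88, 6.23 and 8.08 FPKM in the Aldh2-/- livers and 10.8, 18, 17.5, 17.9 and 16.6 FPKM in the WT livers, lower in every Aldh2-/- library. Csad, which makes the precursor of taurine, fell 3.3-fold (28.9 ± 16.7 against 95.4 ± 28.7 FPKM) and Glud1, glutamate dehydrogenase, 1.84-fold (186 ± 38.7 against 343 ± 64.2 FPKM). Got1, the cytosolic aspartate aminotransferase, rose instead: it was at 1284, 792, 884 and 1721 FPKM in the Aldh2-/- livers and 330.1, 357, 321, 203 and 293 FPKM in the WT livers, with no overlap. Acmsd, which diverts tryptophan breakdown away from NAD, rose 5.07-fold (63.3 ± 34.9 against 12.5 ± 4.26 FPKM), and Aass, the first enzyme of lysine breakdown, 2.31-fold (349.8 ± 117 against 152 ± 13.3 FPKM). In the urea cycle Otc, ornithine transcarbamylase, fell 1.82-fold (55.2 ± 15 against 100.4 ± 10.2 FPKM), and the entry enzyme Cps1 was at 887 ± 439.8 against 857 ± 132 FPKM (adjusted p = 0.897 by limma).

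In one-carbon metabolism 8 of 25 members fell (5 without Aldh2-/- 86) and 3 rose. Shmt1, which moves carbon from serine to folate, was at 31.9, 25.7, 27.2 and 38 FPKM in the Aldh2-/- livers and 53.6, 54.8, 57.4, 50.5 and 51 FPKM in the WT livers, and the groups did not overlap. Gamt, the last step of creatine synthesis, fell 1.84-fold (60.4 ± 12.9 against 111 ± 16 FPKM). Nnmt, which methylates nicotinamide and so consumes methyl groups, was at 230.3, 123, 239.8 and 227 FPKM in the Aldh2-/- livers and 87.2, 68.9, 55.5, 36.7 and 55.1 FPKM in the WT livers, 3.38-fold higher. Mat1a, which makes S-adenosylmethionine, was at 2369 ± 430.2 against 1902 ± 203 FPKM (adjusted p = 0.135 by limma).

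Enzymes that conjugate foreign and hormonal compounds had more falls than rises. Glucuronosyltransferases fell in 10 of 15, or in 6 without any of Aldh2-/- 86 or 90 or WT 6, 11 or 12, and the single rise was lost without any of Aldh2-/- 90 or 96 or WT 6, 11 or 12. Ugt2b36 was at 146, 129.7, 133 and 143 FPKM in the Aldh2-/- livers and 209.6, 213, 241, 229 and 248 FPKM in the WT livers, and Ugt2b35 fell 2.19-fold (13.3 ± 3.94 against 29.3 ± 4.97 FPKM). Both separated the groups, but copies of this family are similar in sequence, so single members are uncertain. Glutathione transferases fell in 10 of 23 and rose in 1 (3 without Aldh2-/- 96 and 2 without WT 5), with Gsta3 at 334 ± 114 against 652 ± 111 FPKM. Among transporters of the hepatocyte 8 of 22 fell and 2 rose (1 without any of Aldh2-/- 86 or 90 or WT 6 or 11). Abcb11, the bile salt export pump, was at 24.1, 17.4, 22.7 and 23.9 FPKM in the Aldh2-/- livers and 27.6, 50.7, 53.7, 54.9 and 51.6 FPKM in the WT livers, with WT 5 the lowest WT library and no overlap. Slc10a1, the uptake carrier for bile acids, fell 1.62-fold (146 ± 35.5 against 236 ± 26.1 FPKM), Slco1b2, an organic anion carrier, 1.81-fold, and Slc22a5, the carnitine transporter, 2.21-fold.

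Genes of haem synthesis and breakdown fell in 7 of 17. Alas1, the rate-limiting enzyme in liver, was at 75.6, 126, 119 and 109 FPKM in the Aldh2-/- livers and 206, 199, 268, 353 and 334 FPKM in the WT livers, Alad, the next enzyme, fell 2.25-fold (11.2 ± 1.56 against 25.2 ± 2.96 FPKM) and Cpox, a later one, 3.2-fold (14.4 ± 6.52 against 45.9 ± 13.7 FPKM). Alas1, Alad and Cpox did not overlap between the groups. Hamp, which encodes hepcidin, the hormone that blocks iron export, was at 4558, 5259, 8282 and 5508 FPKM in the Aldh2-/- livers and 3031, 2499, 3161, 2377 and 3161 FPKM in the WT livers, 2.07-fold higher. Of 24 tested genes of iron handling 5 rose (20.8%) and 2 fell (8.33%, or 0 to 3 genes with 1 library left out). The shares of all genes were 21.5% and 15.7%. Bmp6 and Bmp2 are endothelial signals known to drive hepcidin. They rose 2.51-fold and 2.15-fold (4.1 ± 1.31 against 1.63 ± 0.386 FPKM and 7.82 ± 1.56 against 3.64 ± 1.3 FPKM). Endothelial markers rose in 19 of 20. The part of Bmp6 and Bmp2 in the Hamp result, and of endothelial cells in their rises, was not tested. Hmox1 and the erythroid gene Alas2 were the haem genes that rose. After median-ratio rescaling, with mitochondrial genes removed, or without any of Aldh2-/- 86 or WT 6, 7 or 12, only 1 of them was called.

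Retinoid genes rose in 3 of 20 (6 with library quality weights) and fell in 5 (8 after median-ratio rescaling). Lrat and Cyp26b1, expressed in stellate cells among others, rose 2.78-fold and 4.03-fold, while Aldh1a1 and Aldh1a7, aldehyde dehydrogenases of the cytosol, fell 1.85-fold and 2.1-fold (179 ± 48.6 against 329.9 ± 73.9 FPKM for Aldh1a1). Aldh1b1, a mitochondrial relative of Aldh2 that also accepts acetaldehyde, was at 39.6, 39.9, 47.2 and 97.4 FPKM in the Aldh2-/- livers and 59.2, 112, 104, 81.7 and 87.5 FPKM in the WT livers. Its groups overlapped, with Aldh2-/- 96 above 3 WT libraries (adjusted p = 0.0553 by limma). Summed stellate cell and fibroblast markers were 309 to 601 FPKM against 176 to 332 FPKM, and their part in the Lrat and Cyp26b1 results was not tested.

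Lipoprotein genes fell in 9 of 26 and rose in 3 (1 without any of Aldh2-/- 89 or 90 or WT 6). Apob, the scaffold of very low-density lipoprotein, fell 1.61-fold (165 ± 21 against 266 ± 40.7 FPKM), and Saa4, a constitutive apolipoprotein, 2.97-fold (27.2 ± 8.2 against 80.9 ± 25.3 FPKM).

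Glycolysis genes changed in both directions. Pkm, the pyruvate kinase of proliferating and non-parenchymal cells, was at 14, 23.2, 8.67 and 7.67 FPKM in the Aldh2-/- livers and 3.48, 2.3, 3.13, 2.49 and 2.79 FPKM in the WT livers and rose 4.72-fold, whereas the liver form Pklr fell 1.71-fold (12.7 ± 3.93 against 21.6 ± 2.46 FPKM). Slc2a2, the glucose transporter of hepatocytes, fell 2.4-fold (35.8 ± 15.6 against 85.9 ± 10.4 FPKM), and no library of these 3 genes crossed into the range of the other group. In all 7 of 24 rose and 5 fell (3 without any of Aldh2-/- 90 or WT 6, 7, 11 or 12). Those shares, 29.2% and 20.8% as deposited, stood near the 21.5% and 15.7% of all genes. Glycogen genes fell in 6 of 14 (3 without WT 6 or WT 7). In the tricarboxylic acid cycle 7 of 19 fell (12 without Aldh2-/- 96) and 2 rose, with Fh1, fumarase, at 353, 226, 324 and 412 FPKM in the Aldh2-/- livers and 186, 181, 189.7, 152 and 157 FPKM in the WT livers and Suclg2, a succinyl-CoA ligase subunit, at 42.5 ± 8.76 against 80.5 ± 13.7 FPKM. Fh1 was higher in every Aldh2-/- library.

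The respiratory chain had few calls. Nuclear genes of complex I were called in 1 of 40 (lower; 3 lower after median-ratio rescaling, 3 higher and 2 lower without Aldh2-/- 96, 2 higher without WT 5 and 8 higher with library quality weights) and of complexes II to IV in 3 of 26 (all lower, or 1 without any of Aldh2-/- 86, 89 or 90 or WT 6 or 11, with 2 higher added without WT 5 and 3 with quality weights), and none of the 16 of complex V was called (2 higher with quality weights, 1 lower after median-ratio rescaling), against the background of 37.2%. None of the 13 mitochondrially encoded genes tested was called, and their median log2 change was 0.56. That count depended on the libraries used, with 5 higher without WT 5, 2 without Aldh2-/- 96, 4 without WT 5 and Aldh2-/- 90 together and 8 with quality weights. Of 81 cytosolic ribosomal protein genes 1 was called, lower, although 74 had a positive log2 change. There 24 were called higher without WT 5, 22 without Aldh2-/- 96, 8 without WT 5 and Aldh2-/- 90 together, 6 in the joint fit and 44 with quality weights. For mitochondrial ribosomal proteins the count depended on the scaling: 14 of 78 fell as deposited and 28 after median-ratio rescaling, while 2 rose as deposited, 7 without WT 5 and 0 without any of Aldh2-/- 86 or 90 or WT 6, 7, 11 or 12. Peroxisome genes fell in 8 of 16 and rose in none, with the import receptor gene Pex7 at 26.7 ± 5.31 against 47.6 ± 4.13 FPKM.

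Lysosomal genes rose in 22 of 32 members (median 0.44), and Lamp2 was the 1 called lower, a call lost without any of Aldh2-/- 86, 89 or 90 or WT 6, 7, 11 or 12. After median-ratio rescaling 15 rose. Ctss, the cathepsin of antigen-presenting cells, was at 146, 184, 131 and 76.4 FPKM in the Aldh2-/- livers and 42.4, 29.6, 25.1, 37.3 and 34.3 FPKM in the WT livers. Its lowest Aldh2-/- library, 96, still exceeded all WT libraries. Ctsd, the general aspartic protease of lysosomes, was at 501 ± 93.7 against 251 ± 12.9 FPKM, and the collagen-cleaving Ctsk at 6.07 ± 1.66 against 1.66 ± 0.756 FPKM. Macrophage marker sums rose alongside (881 to 1838 FPKM against 359.8 to 553 FPKM), and their part in the lysosomal result was not tested. Autophagy genes rose in 7 of 22 (4 without Aldh2-/- 86 or WT 11) and fell in 3, with Wipi1, which marks forming autophagosomes, at 14.9 ± 3.19 against 6.51 ± 2.16 FPKM and the mitophagy receptor gene Bnip3l at 35.7 ± 8.0 against 19 ± 2.77 FPKM.

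Secreted plasma proteins did not follow a common course. Acute phase genes rose in 7 of 26 (26.9%) and fell in 1 (3.85%), against 21.5% and 15.7% of all genes. The protease inhibitor gene Serpina3n was at 435, 703, 507 and 922 FPKM in the Aldh2-/- livers and 228, 327, 285, 286 and 301 FPKM in the WT livers, with no overlap. Crp was the acute phase gene that fell, a call lost without any of Aldh2-/- 86, 89 or 90 or WT 6, 7, 11 or 12, while 2 members fell without Aldh2-/- 96 and 3 without WT 5. Plasma carriers and negative acute phase genes rose in 1 of 15 (6.67%) and fell in 2 (13.3%), both below the 21.5% and 15.7% of all genes. After median-ratio rescaling 0 rose and 5 fell. Serpina7 and Serpina6, the carriers of thyroxine and of corticosteroids, fell 5.5-fold and 2.74-fold (1.89 ± 0.358 against 10.4 ± 4.96 FPKM and 30.4 ± 11.7 against 83.5 ± 29.5 FPKM). Coagulation and fibrinolysis genes rose in 8 of 30 (26.7%) and fell in 4 (13.3%, or 7 genes without WT 5). These shares were near those of all genes (21.5% and 15.7%). Pros1, the anticoagulant protein S, was at 48.7, 44.8, 38.8 and 46.3 FPKM in the Aldh2-/- livers and 14.9, 13.6, 16.8, 12 and 12.1 FPKM in the WT livers, above WT in every library (log2 change 1.62 ± 0.119, SE, adjusted p = 3.44e-05). Plat, the tissue plasminogen activator, rose 3.73-fold, and Thbd, the endothelial thrombomodulin gene, 4.13-fold. The hepatocyte products Serpind1, a thrombin inhibitor, and Klkb1, plasma prekallikrein, fell 2.04-fold and 1.96-fold.

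Transcription factors of hepatocyte identity fell in 7 of 20 and rose in 3 (1 after median-ratio rescaling or without WT 7 or 11). Cebpa, a factor of mature hepatocytes, fell 2.04-fold with overlapping groups (67.8 ± 17.9 against 139 ± 40.0 FPKM), Creb3l3, a membrane-bound factor of fasting metabolism, 1.78-fold and Prox1 1.91-fold. Hnf4a, the central factor of hepatocyte identity, was at 129.6, 113, 113 and 161 FPKM in the Aldh2-/- livers and 87.8, 127, 112, 136 and 157 FPKM in the WT livers. Its groups overlapped across most of their range (adjusted p = 0.778 by limma). Nuclear receptors fell in 7 of 22 and rose in 5. Ppara, the fatty acid receptor that switches on oxidation, was at 4.56, 6.6, 5.45 and 4.05 FPKM in the Aldh2-/- livers and 10.1, 13.8, 17.7, 18.1 and 13.2 FPKM in the WT livers, 2.82-fold lower and without overlap, and Ahr, the aryl hydrocarbon receptor, rose 1.75-fold (4.64 ± 0.913 against 2.65 ± 0.371 FPKM).

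Pathways that carry signals between cells differed in their counts. Genes of BMP signalling rose in 11 of 22 and fell in none as deposited, though 1 was lower after median-ratio rescaling and 2 after quantile normalization. Bmper, a secreted modulator of BMP ligands, was at 6.57, 6.62, 3.89 and 6.35 FPKM in the Aldh2-/- livers and 0.688, 0.651, 0.386, 0.328 and 0.453 FPKM in the WT livers, 11.7-fold higher (log2 change 2.17 ± 0.143, SE, adjusted p = 2.06e-05). The Aldh2-/- values stood far above the WT values in every library. Growth factor genes of the PDGF and VEGF families and their receptors rose in 9 of 14, with Pdgfra at 2.87 ± 0.644 against 1.13 ± 0.419 FPKM and the endothelial receptor genes Flt4 and Tie1 at 5.23 ± 0.668 against 2.21 ± 0.745 FPKM and 5.63 ± 0.871 against 2.22 ± 0.967 FPKM. Of the Wnt list 4 of 17 rose and 5 fell (3 without Aldh2-/- 86 or 90), with a median log2 change of -0.05. As deposited these were 23.5% and 29.4%, against 21.5% and 15.7% of all genes. The ligand gene Wnt4 rose 2.74-fold, the endothelial signals Wnt2 and Rspo3, known to pattern the lobule, 2.46-fold and 3.77-fold, and Dkk3 3.23-fold. The receptor gene Fzd8 fell 1.8-fold, Znrf3, which removes Wnt receptors from the cell surface, 1.56-fold, and Ctnnb1, which encodes beta-catenin, 1.36-fold. The other two that fell were Fzd4 and Rnf43, with overlapping groups and calls lost without Aldh2-/- 86 or 90. Of the Hippo list 6 of 14 rose and 1 fell, Yap1, which encodes the coactivator YAP (8.4 ± 0.233 against 11.4 ± 1.28 FPKM). The rises included Tead1, the DNA-binding partner of YAP, at 2.37 ± 0.202 against 0.942 ± 0.165 FPKM and the receptor kinase gene Axl at 7.91 ± 1.88 against 3.4 ± 0.659 FPKM.

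Integrins rose in 12 of 19, among them the leukocyte chain Itgb2 (8.98 ± 3.19 against 2.29 ± 0.537 FPKM) and the platelet and endothelial chain Itgb3 (4.17 ± 1.35 against 0.793 ± 0.367 FPKM), and laminins and related basement membrane genes in 7 of 12, with Lamb1 at 3.28 ± 1.12 against 1.41 ± 0.202 FPKM. No integrin or laminin was lower as deposited, but 1 integrin was lower after either rescaling or without Aldh2-/- 86 and 1 laminin after quantile normalization. Lgals3, a galectin of macrophages and injured cells, was at 113, 98.8, 152 and 32.3 FPKM in the Aldh2-/- livers and 25.5, 14.8, 16, 15.5 and 16.1 FPKM in the WT livers. Aldh2-/- 96 was the lowest of its group and still above every WT library.

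Markers of other cell types gave the background to these signals. In bulk tissue, more cells of a type and more RNA per cell cannot be told apart. All 11 tested erythroid and platelet markers rose, and their sums were 794 to 2428 FPKM against 199 to 628 FPKM in Aldh2-/- and WT libraries. Macrophage and Kupffer cell markers rose in 17 of 20, endothelial markers in 19 of 20 (202 to 280.4 FPKM against 85.8 to 182 FPKM) and stellate cell and fibroblast markers in 13 of 17, with WT 5 the highest WT library (332 FPKM against 176 to 210 FPKM). Neutrophil sums were 39.2 to 105 FPKM against 6.14 to 36.1 FPKM. Lymphocytes stood out less: T cell markers summed to 4.73 to 7.72 FPKM against 3.98 to 6.12 FPKM (1 of 17 members expressed enough to be tested, and not called), and B and plasma cell markers to 2.62 to 7.75 FPKM against 1.58 to 4.58 FPKM. NK cell markers were sparse but did not overlap (1.7 to 4.14 FPKM against 0.599 to 1.28 FPKM). Cholangiocyte markers rose in 5 of 9 (3 without Aldh2-/- 86 and 7 without WT 5) and fell in 0 (1 without Aldh2-/- 96). Adipocyte sums overlapped (17.9 to 64.9 FPKM against 48.4 to 370.1 FPKM), with Lep at 0 in every library. Of 4 tested adipocyte markers 2 fell (1 without Aldh2-/- 86), with a median log2 change of -0.86. Mesothelial sums (135 to 176 FPKM against 167 to 236 FPKM) and acinar sums (7.47 to 57.6 FPKM against 5.5 to 36.3 FPKM) overlapped too. The part of these cells in the lists of BMP, growth factor, integrin and laminin genes was not tested.

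**Figure D4:**
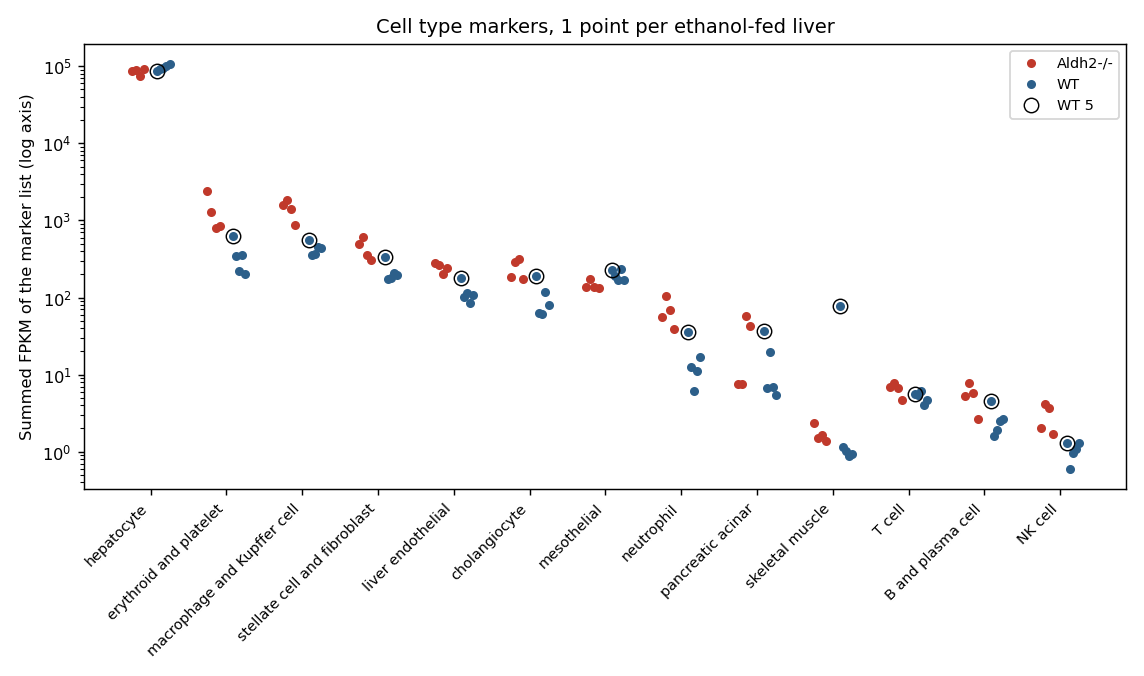
Summed FPKM of 13 marker lists (x axis) on a log axis (y), 1 point per ethanol-fed library, with Aldh2-/- and WT in 2 colours and WT 5 circled. Macrophage, endothelial and erythroid sums lie apart between the groups, and the muscle sum is high only in WT 5 (78.8 FPKM).

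Receptors of innate immune cells were among the most uniform lists. Fc, Toll-like and lectin receptor genes rose in 14 of 18 with a median log2 change of 1.26. Fcgr3, an activating receptor for immunoglobulin G, was at 30.0, 33.3, 19.5 and 13.5 FPKM in the Aldh2-/- livers and 6.65, 4.07, 3.64, 4.61 and 4.38 FPKM in the WT livers. Cd300lf, a lipid-sensing inhibitory receptor of myeloid cells, was at 7.72, 13.2, 5.26 and 3.03 FPKM in the Aldh2-/- livers and 1.34, 0.574, 0.558, 0.335 and 0.731 FPKM in the WT livers. Clec4d, a lectin that recognises microbial glycolipids, rose 10.1-fold (4.95 ± 1.91 against 0.489 ± 0.302 FPKM). In these 3 genes no WT library reached the lowest Aldh2-/- library. Of eicosanoid genes 5 of 8 rose and 2 fell (1 without any of Aldh2-/- 86 or 89 or WT 6, 7 or 11), the falls in Hpgd, which inactivates prostaglandins (30.4 ± 5.11 against 43.5 ± 3.12 FPKM), and Ephx2, a soluble epoxide hydrolase (282 ± 36.2 against 379 ± 50.0 FPKM). The rises included Alox5ap, needed for leukotriene synthesis (10.9 ± 4.4 against 3.32 ± 0.928 FPKM), and Pla2g7, a plasma phospholipase of macrophages (14.5 ± 3.24 against 3.48 ± 1.23 FPKM). Macrophage markers rose at the same time (881 to 1838 FPKM against 359.8 to 553 FPKM), and their part here was not tested.

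Interferon-stimulated genes were split. They rose in 12 of 27 (7 without Aldh2-/- 89 or WT 6) and fell in 6. Usp18, which damps type I interferon signalling, was at 13, 17.1, 10.6 and 9.24 FPKM in the Aldh2-/- livers and 5.38, 5.76, 6.08, 4.18 and 3.34 FPKM in the WT livers, and Igtp, a GTPase induced by interferon gamma, at 3.12, 4.76, 3.13 and 2.9 FPKM in the Aldh2-/- livers and 5.08, 6.45, 7.89, 7.73 and 6.29 FPKM in the WT livers. The first was higher and the second lower in every Aldh2-/- library. The immunoproteasome subunit gene Psmb8 rose 1.81-fold (25 ± 5.17 against 13.8 ± 1.63 FPKM).

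The genotype difference was next set against that in pair-fed mice, 3 Aldh2-/- and 3 WT livers in a separate table. The sample annotation gives CCl4 for all groups, while the sample titles name it for the ethanol groups only. If the titles hold, this contrast also includes CCl4. The interaction, the ethanol difference minus the pair-fed difference on the log2 scale, was called in 4134 of 11157 genes (37.1%), with 899 higher (8.06%) and 3235 lower (29.0%). Its median over all genes was -0.22. After median-ratio rescaling the median was -0.07, and 1383 of 3165 calls were higher (43.7% of the calls, against 21.7% as deposited). In pair-fed livers alone the median log2 change was 0.26, with 2894 of 11138 genes called higher (26.0%) and 268 lower (2.41%), or 261 higher and 386 lower after median-ratio rescaling. The mitochondrially encoded share of FPKM was 9.22%, 10.8% and 6.90% in pair-fed Aldh2-/- libraries and 17.5%, 15.2% and 24.2% in pair-fed WT libraries. With mitochondrial genes removed the interaction had a median of -0.16, with 1012 genes called higher and 2641 lower.

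The genotype difference of endoplasmic reticulum chaperones was lower under ethanol than under pair-feeding. In pair-fed livers 19 of 30 were higher and 0 lower (median log2 change 0.63; 1 higher and 0 lower after median-ratio rescaling, median 0.30), and the interaction was called lower in 24 of 30, or in 20 after median-ratio rescaling. Pdia6 changed by -0.60 under ethanol and 1.42 under pair-feeding, an interaction of -2.02 (adjusted p = 0.000221 by limma), which is -1.80 relative to the median of all genes. Hspa5 had an interaction of -1.24 and Calr of -1.60, or -1.02 and -1.38 relative to that median. Heat shock genes were called in 1 of 20 in pair-fed livers, higher, and the interaction was lower in 11. None was higher, except 1 without Aldh2-/- 90, without pair-fed WT 20 or after median-ratio rescaling. For Dnaja1 it was -1.86 (adjusted p = 9.29e-05 by limma).

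Endothelial markers were called in 1 gene each way in pair-fed livers, and their interaction was higher in 13 of 20. Immediate early genes had an interaction higher in 9 of 19 and glucocorticoid-responsive genes in 6 of 18, both with the same count after median-ratio rescaling. The first count fell to 5 without any of ethanol-fed Aldh2-/- 86 or WT 11 or pair-fed Aldh2-/- 9 or WT 18 (6, with 1 lower, without pair-fed WT 19). The second fell to 3 without pair-fed WT 18 or WT 20. Macrophage markers were called higher in 10 members in pair-fed livers (0 after rescaling), and the interaction was called higher in 8 (5 without pair-fed Aldh2-/- 1 or WT 18). Among 20 clock genes the interaction was higher in 3 and lower in 6 (4 after rescaling), against 8.06% and 29.0% of all genes as deposited. The lower count was thus close to the share of all genes. Nfil3 had an interaction of 2.25, Hlf of -1.52 and Dbp of -2.86. Tef had an interaction of -0.78 (adjusted p = 0.109 by limma). Got1 changed in opposite directions under the diets, 1.91 under ethanol and -1.68 under pair-feeding (interaction 3.59, adjusted p = 4.39e-05 by limma), and so did Nnmt (1.75 and -1.52, interaction 3.27) and Hamp (1.02 and -1.42, interaction 2.44). Mt2 had an interaction of 1.57 (adjusted p = 0.0968 by limma), and for Atf4 it was 0.00 (adjusted p = 0.995 by limma).

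**Figure D5:**
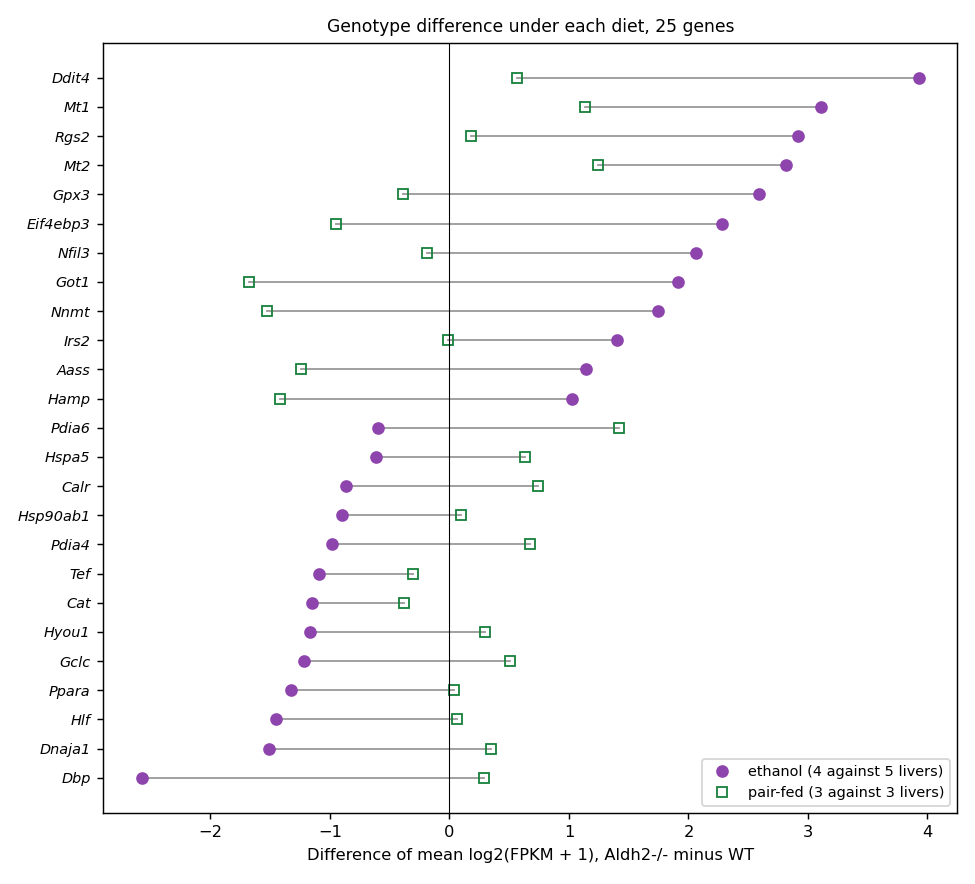
Difference of mean log2(FPKM + 1) (Aldh2-/- minus WT, x axis) for 25 genes named in the text (rows), with a filled point for the ethanol-fed and an open square for the pair-fed comparison, joined by a line that is no error bar. Got1, Nnmt and Hamp lie right of 0 under ethanol and left of 0 under pair-feeding, while Pdia6 and Calr lie left under ethanol and right under pair-feeding.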

How the data were processed

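Bulk liver RNA-seq was analysed for 9 libraries (4 ethanol-fed Aldh2-/-, 5 ethanol-fed WT), with 6 pair-fed libraries for the interaction. Groups follow the sample titles. Per the labels' protocols, TRIzol RNA was made into VAHTS Universal V10 libraries. Per the submitters' processing notes, reads were processed with fastp, HISAT2 and HTSeq on mm10. Versions, strand setting and annotation are not given in the sources used here. The authors deposited FPKM in 2 tables, 1 per diet. Total counts are not given, so each table's own scaling was kept. Relative depth was read from 2943 low genes, in which 23392 of 24149 values (96.9%) were whole multiples of 1 step to within 0.01 step.

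Genes averaging at least 0.5 FPKM were fitted with limma 3.58.1 in R 4.3.3 on log2(FPKM + 1) with a variance trend, and called at an adjusted p under 0.05 (Benjamini-Hochberg, two-sided). The interaction used all 4 groups. Aldh2 had an exact permutation test. Pairs of libraries from both genotypes share description numbers. Their deviations correlated at -0.09 to 0.25 over 4 pairs, with 2 pairs over 0.1, so they were not treated as paired.

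The comparison, its 73 gene lists (1677 entries, 7 absent from the table, 7 found under another name) and the rule for named genes were chosen with earlier results of these data known. Named by rule were Aldh2, the 15 genes that rose most and the 15 that fell most without overlap at 2 FPKM or more in the higher group, up to 3 genes per list and direction with the largest change that held without each library at 1 FPKM or more in the higher group, and a panel. A further 44 genes, most of them members of these lists, were named after their values were seen. Promoters are the 250 bases before RefSeq starts (GRCm38.p6), matched by symbol for 8805 of the 11013 genes. The heat shock motif was added after seeing the data, as was the median-ratio rescaling of the pair-fed libraries. Gene positions are from GENCODE vM21 on GRCm38. The fit was tested on simulated data. Alternatives were a pseudocount of 0.1 FPKM, no filter or one of 2 FPKM, median-ratio rescaling, quantile normalization, removal of mitochondrial genes, library quality weights, a 2-fold minimum, a replicate block, a joint fit, and leaving out WT 5 with Aldh2-/- 90 or each library in turn. Tables and figures used Python 3.11.15, pandas 2.3.3, numpy 2.4.6, scipy 1.17.1 and matplotlib 3.10.9.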

Additional observations from a re-analysis of the deposited data

Results flagged for a closer look

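In 36 of 394 sets of values, each for 1 item in 1 genotype group, 1 library stood apart by Dixon's criterion, where chance gives about 1 in 20. The sets come from the same 9 libraries, so they are not independent draws to set against that rate. WT 5 was the library that stood apart in 19 of the 36 sets. It was high for the muscle sum (78.8 against 0.89 to 1.16 FPKM), the stellate cell and fibroblast sum (332 against 176 to 210 FPKM), summed FPKM (569700.0 against 509200.0 to 525200.0) and the mitochondrially encoded share (13.6% against 6.68% to 7.62%). Its highest single genes against the other WT libraries were Mmp7 (51.8 FPKM), Gpx3 (42.3 FPKM), Lgals3 (25.5 FPKM), Pla2g7 (5.63 FPKM), Klf6 (5.37 FPKM), Tie1 (3.92 FPKM), Lrat (3.69 FPKM), Wnt4 (2.51 FPKM), Thbd (2.40 FPKM), Fam107a (1.92 FPKM) and Cyp26b1 (1.61 FPKM). All of these genes rose in Aldh2-/- livers, and for each WT 5 was the WT library nearest to them. It was low for Pex7 (40.3 FPKM), Abcb11 (27.6 FPKM), Amt (10.8 FPKM) and Hlf (6.29 FPKM), which fell in Aldh2-/- livers.

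Other WT libraries stood apart in Socs2 (WT 11, 1.60 FPKM against 0.315 to 0.651 FPKM), Tsku (WT 12, 47.4 FPKM against 24.6 to 27.0 FPKM) and Lamp2 (WT 12, 88.2 FPKM against 92.1 to 93.2 FPKM). Among Aldh2-/- libraries, 89 was high for Creb3l3 (115 FPKM), Tsku (14.3 FPKM), Igtp (4.76 FPKM), Fzd4 (2.50 FPKM) and the mesothelial sum (176 FPKM) and low for Nnmt (123 FPKM), Slc39a14 (23.5 FPKM) and Hyou1 (5.00 FPKM). Aldh2-/- 96 was high for Aldh1b1 (97.4 against 39.6 to 47.2 FPKM), Ghr (22.9 FPKM) and Ugt2b35 (19.2 FPKM) and low for Bax (50.3 against 79.2 to 79.7 FPKM). Aldh2-/- 86 was high for Ppp1r3g (61.8 FPKM), and Aldh2-/- 90 was low for Bmper (3.89 FPKM).

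The genotype difference differed between the diets in 27 of the 30 genes with the largest changes under ethanol, against 37.1% of all genes. These genes were chosen by their ethanol change, so nothing is read from that count. The interaction (log2, ethanol difference minus pair-fed difference, limma, adjusted p under 0.05) was 3.88 for Sult1e1, an oestrogen sulfotransferase, 3.55 for Cdc42ep5, 3.36 for Ddit4, 3.28 for Fam107a, 3.11 for Ppp1r3g, 2.94 for Hbb-bt, 2.74 for Rgs2, 2.73 for Mmp7, 2.73 for Igfbp1, an insulin-suppressed binding protein, 2.56 for Gpnmb, 2.30 for Tff3, 2.29 for Spink1 and 1.98 for Mt1. The Mt1 call was lost without pair-fed Aldh2-/- 9 or WT 18, and the Igfbp1 call without pair-fed Aldh2-/- 9 or WT 19. Sult1e1, Ppp1r3g and Fam107a were too low in pair-fed livers to be tested there alone. The interaction was -4.07 for Fgf21, a fasting hormone of the liver, -3.79 for Inhbe, an activin subunit, -3.50 for Hmgcs1, of cholesterol synthesis, -2.99 for Bdh1, of ketone metabolism, -2.86 for Dbp, -2.64 for G0s2, an inhibitor of fat breakdown, -2.50 for Akr1c20, -2.06 for Hdhd3, -1.97 for Acy3, -1.95 for Cyp2b9, -1.90 for Sdr9c7, -1.66 for Pbld2 and -1.65 for Apol7a. The Cyp2b9 call was lost without pair-fed Aldh2-/- 1 or 9 or WT 20. Fgf21 and Hmgcs1 changed by -2.43 and -1.99 under ethanol and by 1.64 and 1.51 under pair-feeding. The value for Aldh2 was -0.58, and it was the 1 call of these lost after median-ratio rescaling (adjusted p = 0.116 by limma). Serpina1e, Mt2 and Hsd17b6 were not called.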

How the results depend on the processing

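The number of genes called under ethanol stayed within 1.5 times of 4098 in all alternatives but a 2-fold minimum, which left 719 (484 higher, 235 lower) and 1160 of the 4134 interaction calls. Leaving out each library in turn gave 3175 to 4736 genes, 1745 to 2717 higher and 1307 to 2019 lower, with the fewest calls without Aldh2-/- 86 and the most without WT 5. Among genes averaging 2 FPKM or more 1436 were higher. For the interaction the leave-one-out fits gave 3135 to 4644 genes. Aldh2 ranged from -5.86 to -5.74. A replicate block by the description numbers gave 3120 genes, 1806 of them higher. Of 4 same-numbered pairs 2 correlated over 0.1, and 1 Aldh2-/- library correlated best with its own number. No gene called as deposited was called in the opposite direction in any alternative. Of 167 named genes called, 151 kept the call in every alternative in which they were tested, besides the 2-fold minimum. Many of the 167 were named because their calls held without each library, so nothing is read from that count. Over all genes, 2775 of the 4098 calls held in every fit that left out 1 library. The cause of the lost calls was not tested. FPKM carry no counts, so values near 0 have no counting interval. Splits of reads between similar gene copies could not be checked.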

Other observations

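Further lists are given here for ethanol-fed Aldh2-/- livers, against the background of 21.5% higher and 15.7% lower. Fanconi and interstrand crosslink repair genes, known for repairing DNA damaged by aldehydes, had 8 of 21 members expressed enough to be tested. Of these 3 rose (37.5%, or 6 genes with no filter on low values and 1 among genes averaging 2 FPKM or more). As deposited 0 fell, with 1 lower after median-ratio rescaling and 2 after quantile normalization. Male-biased liver genes rose in 4 of 13 (30.8%, or 2 genes without WT 5 and Aldh2-/- 90 together) and fell in 0. All 13 had a positive log2 change, with a median of 0.76 (0.18 without WT 5 and Aldh2-/- 90 together). Female-biased liver genes rose in 6 of 16 (37.5%) and fell in 6 (37.5%). Complement genes made by hepatocytes were called in 1 of 21 in each direction, 2 of them higher without WT 5 or without Aldh2-/- 90 and 2 lower after median-ratio rescaling.

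Proteasome subunits fell in 9 of 37, and the immunoproteasome subunit Psmb8 was the 1 that rose. That count moved with the scaling, to 16 lower after median-ratio rescaling and 5 after quantile normalization, and to 4 without WT 6 or WT 7 and 5 without WT 11 or Aldh2-/- 89. Sulfotransferases fell in 5 of 11 (2 without WT 11 and 3 without WT 12 or Aldh2-/- 86), while the oestrogen sulfotransferase Sult1e1 rose. Cytoskeletal and calcium-binding genes rose in 11 of 28 (39.3%, or 17 genes without Aldh2-/- 96) and fell in 2 (7.14%, or 1 gene without Aldh2-/- 86).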
